A study of Mus musculus with 8 samples.

Results

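The response to RANKL of mouse macrophages grown from bone marrow and carrying a hairpin against TMBIM6 was measured by RNA sequencing and is described here gene by gene. The response is the difference between the 2 libraries labelled TMBIM6sh_RANKL and the 2 labelled TMBIM6sh_No RANKL, 4 of the 8 libraries of the series. The marrow came from C57BL/6 mice aged 6 to 8 weeks and was kept in M-CSF at 5 ng/ml for 16 h, and its non-adherent cells were then grown in M-CSF at 30 ng/ml for 3 days. The TMBIM6sh groups received either no RANKL or RANKL at 100 ng/ml for 24 h, and the other 4 libraries were the same 2 states with a hairpin labelled NCsh, an abbreviation the labels leave unexplained. The labels name 1 hairpin against TMBIM6, do not describe the vector, and give the same treatment text for all samples, so the groups rest on their titles and treatment fields. They also do not say whether libraries of a group came from separate animals or cultures, so all p-values reflect the spread between libraries alone, which may be technical. The TMBIM6sh libraries are called untreated libraries 1 and 2 and RANKL libraries 1 and 2.

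RANKL is a cytokine of the tumour necrosis factor family that turns macrophage precursors into osteoclasts, the cells that resorb bone. Its receptor RANK recruits TRAF adaptors, which activate the canonical NF-kappaB route and, through the kinase NIK and the precursor protein p100, the noncanonical route. Induction of FOS, calcium signals and the transcription factor NFATC1 follow, while M-CSF keeps the precursors alive and dividing. TMBIM6 sits in the membrane of the endoplasmic reticulum, guards against cell death and takes part in calcium leak from that store.

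The deposited values are RPKM, reads scaled to exon length and to the mapped tags of the library, and 11040 of 24940 genes had at least 1 RPKM in at least 2 of the 8 libraries and were tested. Depth, recovered from the steps between the values, was 25541000 to 28520000 tags in the TMBIM6sh libraries. The ribosomal RNA precursor Rn45s took 6.76% to 8.22% of their exon tags, most in RANKL library 1. Tmbim6, the target of the hairpin, stood at 11.1 and 11.7 RPKM in the untreated libraries and at 10.0 and 10.5 RPKM in the RANKL libraries (log2 change -0.15, SE 0.0574, adjusted p = 0.126). Among 8 genes that define macrophages, Lyz2, which encodes lysozyme, was at 5280 to 6172 RPKM and Adgre1, which encodes F4/80, at 737 to 901 RPKM. Mrc1, of the same list, was at 4.6 to 9.46 RPKM. Of 8 genes that define mature osteoclasts, Calcr was at 0 in all 4 libraries, Ctsk reached at most 0.075 RPKM, and 3 passed the filter on low values. These 3 were Acp5 at 50.9 to 64.4 RPKM, Atp6v0d2 at 6.47 to 10.3 RPKM and Dcstamp at 0.262 to 1.25 RPKM. The 8 genes summed to 62.9 to 72.4 RPKM, most of it from Acp5. Summed over each list, markers of neutrophils and promyelocytes reached 12.9 to 17.4 RPKM, those of dendritic cells 2.15 to 3.25, of stromal cells and osteoblasts 6.2 to 6.93, of lymphocytes 0.603 to 1.30, and of erythroid and mast cells and basophils 0.087 to 0.196. Most of the neutrophil sum came from S100a8, at up to 15.4 RPKM. Ly6g, Retnlg and S100a9 of that list were at 0 in all 4 libraries, and 2 of its 12 genes passed the filter. Of these 5 lists 8 genes were tested and 0 passed with limma, with 1 at an unadjusted p under 0.05 (Cd79b, at most 1.27 RPKM). In such bulk samples, fewer cells of a type and less RNA per cell cannot be told apart.

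RANKL changed 1703 of the 11040 genes in TMBIM6sh libraries at an adjusted p under 0.05 (15.4%), with 942 higher (8.53%) and 761 lower (6.89%). Among called genes the rises were larger and started from lower levels than the falls, and which genes are called also shapes these sizes. Among the rises the median log2 change was 0.486 from a median untreated level of 7.34 RPKM, and 340 genes rose by at least 1.5-fold on the log2(RPKM + 1) scale. Among the falls the median was -0.394 from 21.7 RPKM, and 157 genes fell by that much. A change of at least 2-fold was reached by 61 rises and 27 falls. The median over all genes tested was a log2 change of 0.0173 from 8.89 RPKM. For 6439 genes (58.3%) both libraries of a group lay above both of the other, so this separation alone sets few genes apart. It held for all 942 rises and all 761 falls, so where it is given below it adds nothing to a call. Of the genes that rose, 907 were protein-coding, and of those that fell 734. The counts of each gene list below are to be read beside the 8.53% of all genes that rose and the 6.89% that fell. Both counts were lower without any one of the 4 libraries. The total became 880 and 826 without untreated library 1 or 2, and 996 and 1066 without RANKL library 1 or 2. Rises became 524 and 515 without the untreated libraries in turn and 633 and 527 without the RANKL libraries, and falls 356, 311, 363 and 539 in the same order.

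The largest rises joined adaptors and inhibitors of the NF-kappaB pathway with secreted proteins and receptors. Traf1, on chromosome 2 and encoding a TRAF adaptor protein (34941750 to 34961772, mm10), had 1.48 and 1.76 RPKM in the untreated and 21.3 and 22.0 RPKM in the RANKL libraries. The groups were far apart, the ratio of means was 13.4, and the log2 change of 3.11 (SE 0.0795, adjusted p = 7.37e-08) was the largest of the comparison. Htra1, a secreted serine protease on chromosome 7 (130936203 to 130985658), went from 0.670 and 0.536 to 9.57 and 9.96 RPKM. Its libraries held 31 to 516 tags, and its ratio of 16.2 exceeded that of Traf1 although its log2 change was smaller (2.75, SE 0.118, adjusted p = 1.88e-06), since the added 1 shrinks low genes. C3, the central component of complement on chromosome 17 (57203967 to 57228136), went from 7.91 and 8.66 to 55.3 and 56.4 RPKM (log2 2.62, SE 0.0712, adjusted p = 7.37e-08). Cxcl10, a chemokine for T cells, went from 0.739 and 0.577 to 8.96 and 5.55 RPKM. Its RANKL libraries were far apart from each other, and its SE of 0.215 around a log2 change of 2.29 was the widest among the 12 largest rises (adjusted p = 0.000137). Gpr132, a receptor for lysolipids and lactate, had 0.483 and 0.504 RPKM untreated and 4.62 and 5.78 RPKM with RANKL (log2 2.05). Il2rg, the receptor chain shared by several interleukins, had 21.9 and 20.2 RPKM untreated and reached 82.6 and 86.2 RPKM (log2 1.95). It was the most abundant of these 12 genes after RANKL. Pde2a, a phosphodiesterase that breaks down cyclic nucleotides, went from 5.99 and 5.40 to 20.6 and 22.0 RPKM (log2 1.74). Fscn1, an actin-bundling protein, went from 1.19 and 1.26 to 5.58 and 5.28 RPKM (log2 1.53), and the linker histone gene H1fx from 1.42 and 1.23 to 4.33 and 6.54 RPKM (log2 1.45). Nfkb2, Birc3 and Mmp9 complete the 12. None of their libraries overlapped between the groups, as the choice of genes required.

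**Figure D1:**
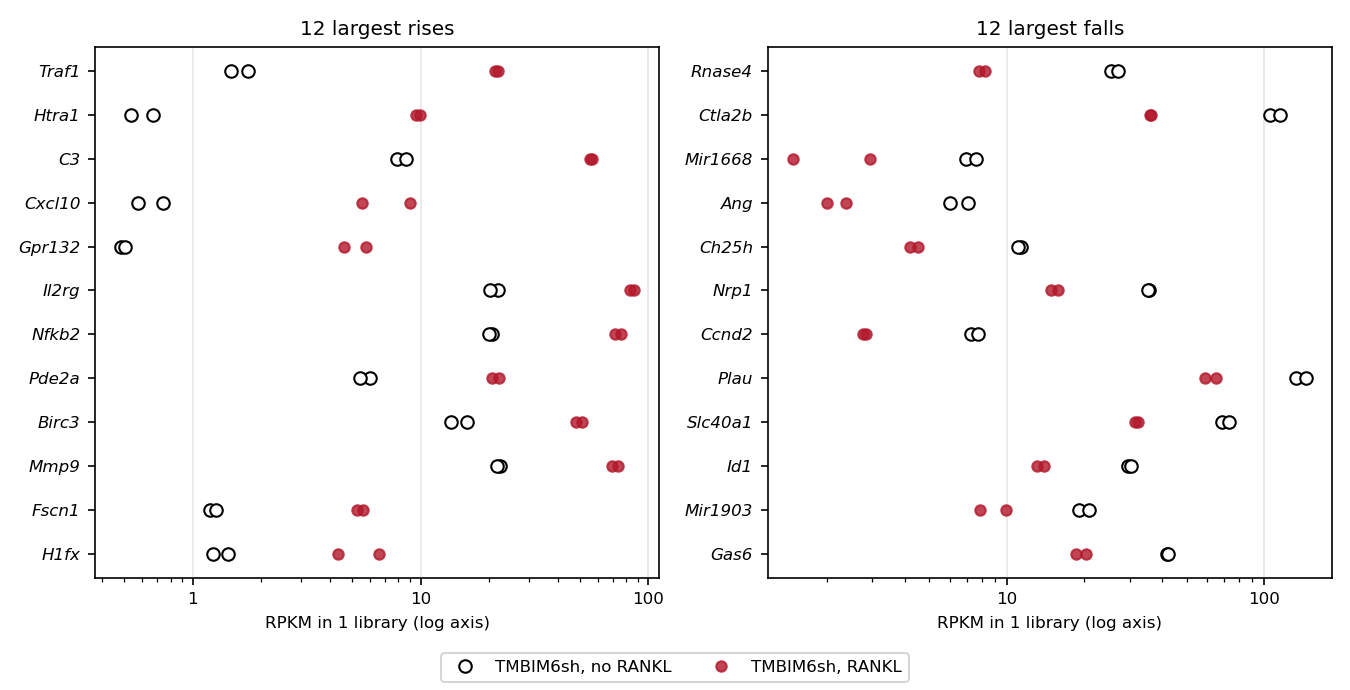
RPKM of the 12 largest rises and 12 largest falls in each TMBIM6sh library, on a log axis, with open circles for the 2 untreated and filled circles for the 2 RANKL libraries. In each row both circles of a kind lie on the same side of both of the other kind, as the choice of genes requires, and Traf1 moves from about 1.62 to 21.6 RPKM on average.

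The largest falls were led by secreted enzymes and surface proteins. Rnase4, a secreted ribonuclease on chromosome 14 (51091077 to 51106151), had 25.5 and 27.0 RPKM untreated and 7.79 and 8.25 RPKM with RANKL (log2 -1.60, adjusted p = 2.08e-05). Ang, which encodes angiogenin and shares its annotated start with Rnase4, went from 5.99 and 7.08 to 2.0 and 2.36 RPKM (log2 -1.24). Reads in their shared part cannot be assigned to either gene. Ctla2b, an inhibitor of cathepsin-like proteases on chromosome 13 (60895351 to 60897447), went from 106 and 115 to 36.2 and 36.0 RPKM (log2 -1.58, SE 0.0933, adjusted p = 1.22e-05). Its near copy Ctla2a also fell (log2 -0.90), and reads may have been split between them. Ch25h, which makes 25-hydroxycholesterol, went from 11.3 and 11.0 to 4.53 and 4.21 RPKM (log2 -1.18). Nrp1, a co-receptor for semaphorins and VEGF, went from 35.6 and 35.5 to 14.8 and 15.8 RPKM (log2 -1.16, adjusted p = 8.5e-06). Plau, the urokinase-type plasminogen activator, went from 133 and 146 to 58.8 and 65.1 RPKM, the largest loss in RPKM among these 12 (log2 -1.16). Slc40a1, the iron exporter ferroportin, went from 68.7 and 72.8 to 31.5 and 32.3 RPKM (log2 -1.12). Gas6, a ligand that links dying cells to the TAM receptors, went from 41.8 and 42.4 to 18.6 and 20.3 RPKM (log2 -1.08). In each of these genes both untreated libraries lay above both RANKL libraries, as the choice of genes required. Ccnd2 and Id1 are described with their groups. The last of the 12 are Mir1668 and Mir1903, microRNA genes of 106 and 79 bases that lie inside Adgre5 and Nrp1. Both hosts fell (log2 -1.04 and -1.16), and reads of gene and host cannot be told apart.

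All calls in the NF-kappaB and TRAF group were rises, among genes of the noncanonical route, adaptors and inhibitors. Of 24 members, all tested, 9 rose and 0 fell with limma (13 and 0 at an unadjusted p under 0.05), with a median log2 change of 0.17 beside 0.0173 over all genes. Nfkb2 on chromosome 19 (46304737 to 46312090), which encodes p100, went from 20.6 and 19.9 to 71.0 and 75.5 RPKM (log2 1.80, SE 0.0593, adjusted p = 2.93e-07). Relb, the partner of its processed form, went from 15.7 and 15.1 to 19.8 and 22.3 RPKM (log2 0.42, adjusted p = 0.00465). Map3k14, which encodes NIK, went from 2.66 and 3.57 to 6.47 and 5.86 RPKM (log2 0.81). The 4 adaptors and ligases that hold NIK low also rose. Traf2 went from 7.21 and 7.60 to 14.3 and 15.3 RPKM (log2 0.91), Traf3 from 9.52 and 10.0 to 15.6 and 15.5 (log2 0.62), Birc2 from 3.79 and 3.57 to 6.23 and 6.29 (log2 0.63), and Birc3 from 16.0 and 13.6 to 48.0 and 51.0 (log2 1.68, SE 0.0923, adjusted p = 9.23e-06). Nfkbie, the inhibitor IkappaB-epsilon, went from 7.74 and 8.01 to 17.3 and 20.2 RPKM (log2 1.15). In these 8 genes no untreated library reached the level of a RANKL library. Nfkb2 overlaps the end of Psd and a further gene on the other strand, and reads in the shared stretches cannot be assigned. The canonical subunits showed log2 changes close to 0, with -0.03 for Nfkb1 (adjusted p = 0.8), 0.06 for Rela (adjusted p = 0.623) and 0.00 for Rel (adjusted p = 0.988). Traf6, the adaptor through which RANK starts the canonical route, had a log2 change of 0.05 (adjusted p = 0.738). Nfkbia, the inhibitor IkappaB-alpha, was higher in both RANKL libraries (13.6 and 14.1 against 26.3 and 20.1 RPKM) but missed the threshold (log2 0.69, adjusted p = 0.189). Of the same 24 genes 10 rose and 0 fell in NCsh libraries, where 11% of all genes rose and 3.98% fell.

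Promoter stretches of this group are shown because all 9 of its calls were rises and some members carry the letters that NF-kappaB dimers bind. The windows searched ran from 250 bases before to 50 after a RefSeq start site (GRCm38.p6, the patch release of mm10), and the 250 bases before the start are printed 5′ to 3′ with matches to the NF-kappaB consensus in capitals. They are Traf1 chr2:34961773-34962022 (minus strand), Nfkb2 chr19:46304487-46304736 (plus strand), Nfkbie chr17:45555450-45555699 (plus strand) and Traf3 chr12:111166120-111166369 (plus strand). Traf1, Nfkb2 and Nfkbie are among the 4 largest rises of the list, and Traf3 was added after its match was seen.
Traf1: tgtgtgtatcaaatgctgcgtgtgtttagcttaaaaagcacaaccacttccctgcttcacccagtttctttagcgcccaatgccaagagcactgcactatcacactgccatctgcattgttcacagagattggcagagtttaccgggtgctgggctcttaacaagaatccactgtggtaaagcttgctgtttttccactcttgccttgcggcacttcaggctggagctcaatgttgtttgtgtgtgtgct
Nfkb2: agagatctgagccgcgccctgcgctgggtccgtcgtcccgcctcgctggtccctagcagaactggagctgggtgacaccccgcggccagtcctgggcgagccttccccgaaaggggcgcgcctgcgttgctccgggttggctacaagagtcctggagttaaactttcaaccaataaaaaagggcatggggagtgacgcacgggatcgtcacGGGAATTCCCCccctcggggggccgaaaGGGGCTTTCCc
Nfkbie: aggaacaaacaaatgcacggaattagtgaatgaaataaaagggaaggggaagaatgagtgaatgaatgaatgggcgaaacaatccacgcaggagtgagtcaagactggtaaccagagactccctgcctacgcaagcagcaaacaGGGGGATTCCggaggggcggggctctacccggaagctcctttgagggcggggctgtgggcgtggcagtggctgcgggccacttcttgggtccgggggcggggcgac
Traf3: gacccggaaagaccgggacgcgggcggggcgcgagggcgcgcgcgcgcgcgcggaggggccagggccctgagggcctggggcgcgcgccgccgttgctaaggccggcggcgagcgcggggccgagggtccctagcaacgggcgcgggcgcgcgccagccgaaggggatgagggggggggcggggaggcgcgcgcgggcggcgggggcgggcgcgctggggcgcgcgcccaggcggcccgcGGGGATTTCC
Nfkb2 had 3 matches, of which 2 overlap on opposite strands at -39 to -29 before the start and the third ends at -2. Nfkbie had 1 match at -106 to -97 and Traf3 1 match that ends at -1, while the windows of Traf1 and Birc3 had none. On either strand the consensus stood in 9 of the 20 members with a window (45%), in 100 of 731 rises with a window (13.7%), in 66 of 586 falls (11.3%) and in 863 of 8567 genes tested (10.1%). These shares are descriptions and were not tested.

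Among genes of receptor-proximal RANK and M-CSF signalling most calls were falls. Of 30 members 29 were tested, and 1 rose and 7 fell (median log2 -0.04), with 2 rises without NCsh library 2 lacking RANKL. Csf1r, the M-CSF receptor, fell from 249 and 245 to 147 and 159 RPKM (log2 -0.69, SE 0.0615, adjusted p = 0.000111). Lyn, a Src family kinase, went from 131 and 129 to 88.7 and 96.6 RPKM (log2 -0.48), the adaptor gene Lcp2 from 39.2 and 38.3 to 28.1 and 29.7 (log2 -0.41), and Vav3, a guanine nucleotide exchange factor needed in osteoclasts, from 10.8 and 11.0 to 6.87 and 6.75 (log2 -0.61). The other 3 falls were Trem2, Inpp5d and Tec (log2 -0.49, -0.33 and -0.31), named after their values were seen. Blnk, an adaptor of immunoreceptor signalling, was the member that rose, from 11.4 and 11.0 to 16.2 and 16.9 RPKM (log2 0.52). The RANK gene Tnfrsf11a had 39.9 and 41.6 RPKM untreated and 45.6 and 46.4 RPKM with RANKL (log2 0.17, adjusted p = 0.0749). In the calcium, calcineurin and NFAT list 24 of 26 members were tested, 2 rose and 2 fell (median log2 -0.03), shares close to the 8.53% and 6.89% of all genes. Orai2, a subunit of store-operated calcium channels, went from 9.31 and 9.64 to 18.2 and 20.9 RPKM (log2 0.97, adjusted p = 7.95e-05). Itpr3, a channel that releases calcium from the endoplasmic reticulum, went from 13.2 and 13.6 to 9.19 and 9.34 RPKM (log2 -0.49, adjusted p = 0.00101). The sensor Stim2 (log2 0.33) and the kinase subunit Camk2d (-0.36) also passed, but Stim2 lost its call without any one of the 4 TMBIM6sh libraries and Camk2d without untreated library 2.

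Transcription factors of osteoclast formation split in 2 directions. Of 25 members 24 were tested, 6 rose and 5 fell, and the median log2 change was 0.02, as over all genes. Fos, an AP-1 subunit that osteoclast formation needs, went from 57.6 and 56.2 to 97.1 and 98.1 RPKM (log2 0.77, SE 0.0564, adjusted p = 3.96e-05). Junb went from 114 and 118 to 172 and 177 RPKM (log2 0.59), and Fosl1 from 2.72 and 2.54 to 5.26 and 5.67 (log2 0.83). Jdp2, an AP-1 relative, went from 12.1 and 11.5 to 22.5 and 27.3 RPKM (log2 1.01), and Myc from 14.0 and 12.8 to 22.8 and 25.1 (log2 0.79). These 5 genes were higher in both RANKL libraries, and Batf was the other rise (log2 0.45). The 5 falls were Mef2a (-0.55), Mef2c (-0.40), Cebpa (-0.33), Tfe3 (-0.28) and Jund (-0.19), and 1 or 2 of the list fell when any one of the 4 libraries was left out (1 without untreated library 2). Nfatc1 stood at 6.21 and 5.58 RPKM untreated and at 5.77 and 5.85 RPKM with RANKL (log2 -0.02, adjusted p = 0.939).

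Among 18 tested repressors of osteoclast formation 5 rose and 8 fell (20 listed, median log2 -0.20). Id1, an inhibitor of helix-loop-helix factors, went from 29.6 and 30.5 to 13.9 and 13.1 RPKM (log2 -1.10, SE 0.0985, adjusted p = 0.000111). Irf8, a transcription factor of the macrophage lineage, went from 53.3 and 53.7 to 30.9 and 34.6 RPKM (log2 -0.69). Both genes lay lower in both RANKL libraries. The cytokine signal inhibitor Socs3 went the other way, from 5.10 and 5.52 to 11.3 and 11.6 RPKM (log2 0.98, adjusted p = 0.000385). Socs1 (0.89), Klf4 (0.53) and Irf1 (0.40) were among the other rises. The 8 falls became 4 without untreated library 2 or RANKL library 1, and 5 without RANKL library 2.

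Effectors of fusion and resorption were mixed, and several lay under the filter. Of 22 members 16 passed the filter, 3 rose and 4 fell (median log2 0.04). Mmp9, a gelatinase of osteoclasts and macrophages on chromosome 2 (164948219 to 164955850), went from 22.2 and 21.6 to 69.4 and 73.4 RPKM (log2 1.66, SE 0.0596, adjusted p = 5.02e-07). Src, the kinase of the ruffled border, went from 6.93 and 6.4 to 10.5 and 12 RPKM (log2 0.67, adjusted p = 0.000766), and the tetraspanin gene Cd81 had a log2 change of 0.23 (adjusted p = 0.0226) that lost its call when a library was left out. Mmp9 and Src were higher in both RANKL libraries by more than their spread. Cd9, a tetraspanin linked to fusion, went from 94.6 and 99.2 to 56.0 and 62.7 RPKM (log2 -0.70, adjusted p = 0.000356), and Atp6v0d2, a proton pump subunit used in fusion, from 10.3 and 9.59 to 6.94 and 6.47 RPKM (log2 -0.50, adjusted p = 0.00121). Plekhm1 (log2 -0.38) and Ostm1 (-0.27), which serve lysosome positioning and chloride transport, also fell, but their calls did not hold in every leave-out, and the 4 falls became 2 without untreated library 2 or RANKL library 1. Acp5, the gene of the osteoclast enzyme TRAP, had 50.9 and 53.2 RPKM untreated and 55.8 and 64.4 RPKM with RANKL (log2 0.20, adjusted p = 0.193). Dcstamp, the fusion receptor, had 0.262 and 0.499 RPKM untreated and 1.25 and 0.558 RPKM with RANKL (log2 0.44, adjusted p = 0.247). Both were higher in each RANKL library than in either untreated library, as were many genes that did not pass. Members that did not pass the test were Mmp14 (log2 0.21), Itgav (-0.23), Clcn7 (0.08), Tcirg1 (0.13), Slc4a2 (-0.17), Snx10 (-0.06) and Ckb (-0.01). The 6 untested members were Ctsk, Calcr, Oscar, Ocstamp, Itgb3 and Car2. Calcr and Car2 were at 0 in all 4 libraries, Oscar reached 0.040 RPKM, Ocstamp 0.395 RPKM and Itgb3 0.956 RPKM.

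**Figure D2:**
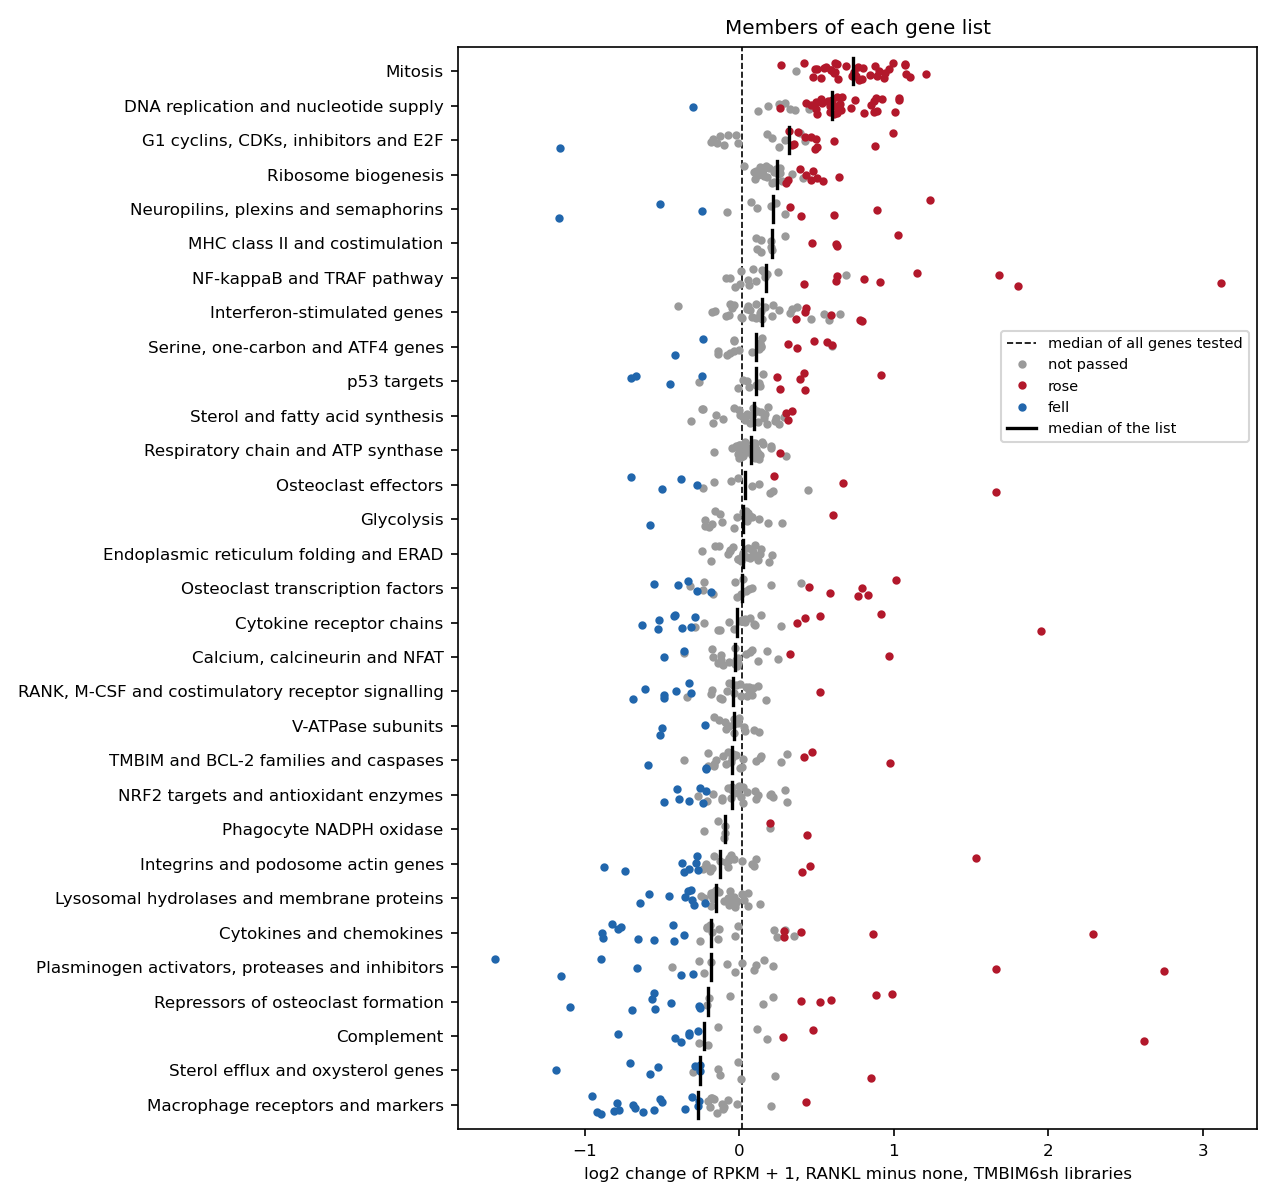
Log2 change with RANKL in TMBIM6sh libraries of each tested member of the 31 gene lists, with members that rose in red, that fell in blue and that did not pass in grey, black ticks at list medians and a dashed line at the median of all genes tested (0.0173). Mitosis and DNA replication stand to the right with medians of 0.74 and 0.60, and macrophage receptors to the left with -0.27.

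Cell division genes rose almost throughout. In the DNA replication and nucleotide supply list 33 of 41 members rose and 1 fell, with a median log2 change of 0.60, and in the mitosis list 37 of 38 rose and 0 fell, with a median of 0.74 (limma; 38 and 0 at an unadjusted p under 0.05). Uhrf1, needed for DNA methylation to be copied to new strands, went from 13.7 and 13.2 to 28.6 and 28.8 RPKM (log2 1.03, SE 0.0587, adjusted p = 1.11e-05). Rrm2, the regulated subunit of ribonucleotide reductase, went from 13.8 and 13.7 to 28.6 and 29.8 RPKM (log2 1.03), and Mcm7, a helicase subunit, from 14.2 and 15.4 to 29.9 and 31.8 RPKM (log2 1.01). Each was higher in both RANKL libraries, and Mcm7 holds microRNA genes whose reads cannot be told from its own. Tk1, a thymidine kinase, had a log2 change of 0.92, and Fen1, a flap endonuclease, of 0.87. Pcna, the sliding clamp, was the member that fell, from 246 and 245 to 197 and 202 RPKM (log2 -0.30, adjusted p = 0.0111), and it lost its call without either untreated library or RANKL library 1. In mitosis, Birc5, which encodes survivin, went from 5.28 and 5.63 to 14.0 and 13.8 RPKM (log2 1.21, SE 0.074, adjusted p = 1.4e-05). Aurkb, a kinase of chromosome segregation, went from 3.06 and 2.56 to 6.82 and 7.53 RPKM (log2 1.10), Top2a, a topoisomerase, from 10.3 and 9.59 to 21.8 and 22.4 (log2 1.08), and Ube2c, a ubiquitin-conjugating enzyme of mitotic exit, from 8.04 and 6.84 to 17.1 and 16.3 (log2 1.07). The condensin subunit Ncapd2 had a log2 change of 0.99. No RANKL library of these genes fell to the level of an untreated library. Cenpa, a centromere histone, was the member of the mitosis list that did not pass (log2 0.37). Summed over the list, mitosis genes reached 166 and 162 RPKM untreated and 297 and 305 RPKM with RANKL. In NCsh libraries 31 replication genes rose and 37 mitosis genes did, with medians of 0.55 and 0.71.

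Among 27 tested genes of the G1 phase 12 rose and 1 fell (28 listed, median log2 0.32), and the D-type cyclins parted. Ccnd1 went from 166 and 168 to 238 and 231 RPKM (log2 0.49, adjusted p = 0.000555), while Ccnd2 went from 7.23 and 7.74 to 2.75 and 2.84 RPKM (log2 -1.16, SE 0.0873, adjusted p = 4.48e-05). Ccne2, a cyclin of S-phase entry, went from 3.82 and 3.39 to 7.03 and 7.88 RPKM (log2 0.88). E2f8, a repressor among the E2F factors, went from 2.17 and 2.44 to 5.65 and 5.53 RPKM (log2 1.0), and Cdkn2c, an inhibitor of CDK4 and CDK6, from 4.08 and 4.29 to 7.48 and 6.39 (log2 0.61). Of these only Ccnd2 was lower in the RANKL libraries. Cdkn1a, which encodes p21, had a log2 change of -0.01 (adjusted p = 0.942). The 12 rises became 7 without untreated library 1 or 2. In ribosome biogenesis, all 30 members had a log2 change above 0, 9 rose and 0 fell (21 and 0 at an unadjusted p under 0.05), and the median was 0.24. Dkc1, the pseudouridine synthase of snoRNPs, went from 2.81 and 2.54 to 4.91 and 4.55 RPKM (log2 0.64), and Nop56, a box C/D snoRNP core protein, from 25.1 and 25.6 to 35.4 and 39.4 (log2 0.54). The number of called members was 3 without untreated library 2, 5 without untreated library 1, 4 without RANKL library 2 and 14 without either NCsh library lacking RANKL. Of 22 tested serine, one-carbon and ATF4 genes 5 rose and 2 fell (24 listed, median log2 0.11). Shmt2, the mitochondrial serine hydroxymethyltransferase, went from 21.3 and 18.6 to 28.7 and 32.8 RPKM (log2 0.60, adjusted p = 0.00123), and Atf3, a stress factor, from 123 and 128 to 91.7 and 95.6 RPKM (log2 -0.41, adjusted p = 0.00143). Mthfd1l also rose (log2 0.56), while the rises fell to 2 without untreated library 1 or RANKL library 2 and to 3 without untreated library 2 or either NCsh library with RANKL.

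Promoter stretches of cell division genes are shown because 33 of 41 replication and 37 of 38 mitosis genes rose. Capitals mark the E2F letters (TTTGGCGC or TTTCCCGC) in Mcm7, and the cell cycle homology region CHR (TTTGAA) and the CCAAT box in the other windows, on either strand. They are Mcm7 chr5:138171884-138172133 (minus strand), Top2a chr11:99024190-99024439 (minus strand) and Ube2c chr2:164769679-164769928 (plus strand). Top2a is the mitosis gene with the largest rise but for Birc5 and Aurkb, and Mcm7 and Ube2c were chosen after their matches were seen.
Mcm7: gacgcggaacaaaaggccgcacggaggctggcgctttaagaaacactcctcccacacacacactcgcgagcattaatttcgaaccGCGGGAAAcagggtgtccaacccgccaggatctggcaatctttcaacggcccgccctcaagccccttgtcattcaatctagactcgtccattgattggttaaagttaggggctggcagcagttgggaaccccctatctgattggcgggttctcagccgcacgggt
Top2a: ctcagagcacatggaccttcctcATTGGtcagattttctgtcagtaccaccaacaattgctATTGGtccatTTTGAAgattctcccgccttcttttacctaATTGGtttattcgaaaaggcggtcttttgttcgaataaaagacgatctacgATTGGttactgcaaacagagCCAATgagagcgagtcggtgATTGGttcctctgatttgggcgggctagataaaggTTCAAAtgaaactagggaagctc
Ube2c: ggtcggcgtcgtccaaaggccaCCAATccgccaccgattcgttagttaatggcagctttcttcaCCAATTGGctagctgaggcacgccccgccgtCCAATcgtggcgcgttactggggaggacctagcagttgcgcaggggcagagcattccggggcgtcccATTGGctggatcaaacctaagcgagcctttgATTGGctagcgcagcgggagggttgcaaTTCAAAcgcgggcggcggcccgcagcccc
In the whole windows Mcm7 had 1 E2F match, Top2a 2 CHR and 6 CCAAT matches, and Ube2c 1 CHR and 6 CCAAT matches, of which 2 overlap each other. The E2F letters stood in 12 of the 33 replication genes with a window (36.4%) and in 284 of 8567 genes tested (3.32%). CHR stood in 26 of 33 mitosis genes (78.8%) against 11.8% of the genes tested, and CCAAT in 26 of 33 (78.8%) against 39%. Among all rises the shares were 7.52% for E2F, 17.1% for CHR and 43% for CCAAT, and among all falls 1.02%, 9.56% and 38.4%. Uhrf1, Rrm2 and Birc5, which rose as much, had no match to these E2F or CHR letters, which says nothing of the factors themselves. The AP-1 letters TGANTCA stood in 4.65% of rises, 8.19% of falls and 5.02% of the genes tested, the interferon response letters GAAANNGAA in 8.21%, 8.36% and 7.27%, and the E-box CACGTG in 11.9%, 9.04% and 10.7%. None of these shares was tested.

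**Figure D3:**
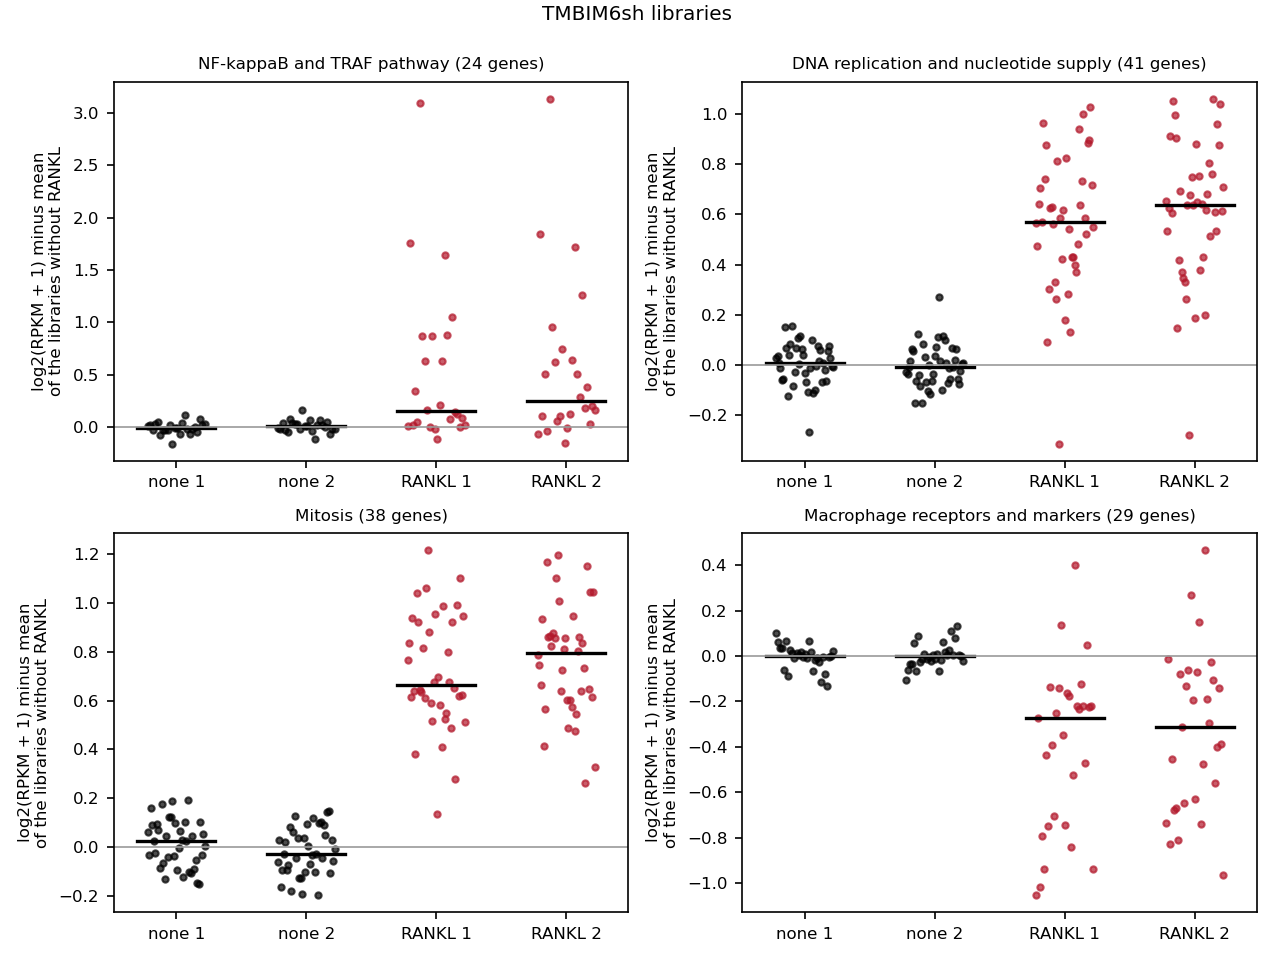
Log2(RPKM + 1) of each tested member minus its mean in the untreated libraries, in the 4 TMBIM6sh libraries, for 4 gene lists, with black bars at the medians. Mitosis and DNA replication genes lie above 0 in both RANKL libraries but for Pcna, the NF-kappaB list spreads up to Traf1 near 3.11, and macrophage receptors lie mostly below 0.

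Among receptors and markers of macrophages most calls were falls. Of 34 members 29 were tested, 1 rose and 16 fell, and 27 had a log2 change below 0 (median -0.27). Siglec1, a sialic acid receptor, went from 18.2 and 17.6 to 8.85 and 8.69 RPKM (log2 -0.95, SE 0.0769, adjusted p = 6.43e-05). Fcgr3, a receptor for antibody complexes, went from 108 and 103 to 51.8 and 59.2 RPKM (log2 -0.92, adjusted p = 9.29e-05), and Cd36, a scavenger receptor, from 624 and 631 to 385 and 401 RPKM (log2 -0.68). Mrc1, the mannose receptor, went from 8.23 and 9.46 to 4.85 and 4.6 RPKM (log2 -0.78). In these genes and in Csf1r both RANKL libraries were lower. Fcgr1 (-0.89) and the efferocytosis receptor Mertk (-0.81) were further falls, and Tlr2 was the member that rose (0.43), all 3 named after their values were seen. The falls became 10 without untreated library 1, and the rises 2 without NCsh library 2 lacking RANKL. Of 8 genes that define macrophages 4 fell and 0 rose (1 rise and 4 falls at an unadjusted p under 0.05), and their summed level was 8440 and 8440 RPKM untreated and 7410 and 8020 RPKM with RANKL. Lyz2 (log2 -0.16, adjusted p = 0.437), Cd68 (-0.10, adjusted p = 0.453) and Adgre1 (0.20, adjusted p = 0.097) did not pass.

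Secreted factors moved both ways. Of 28 tested cytokines and chemokines 5 rose and 10 fell (40 listed, median log2 -0.18). Tnf went from 75.3 and 73.4 to 43.3 and 42.2 RPKM (log2 -0.79, SE 0.061, adjusted p = 5.41e-05), Ccl7, a monocyte chemokine, from 15.1 and 16.2 to 7.83 and 8.19 RPKM (log2 -0.89), and Spp1, which encodes osteopontin, from 240 and 247 to 138 and 147 RPKM (log2 -0.77). The growth factor gene Igf1 went from 52.1 and 51.8 to 28.3 and 29.6 RPKM (log2 -0.82, adjusted p = 2.89e-05). All 4 were lower in both RANKL libraries, opposite to Cxcl10. The other rises were Cxcl3, Cxcl16, Ccl9 and Il1rn (log2 0.87, 0.40, 0.29 and 0.29), and the 5 rises became 3 without untreated library 1 or RANKL library 2 and 2 without untreated library 2. The inflammatory interleukin genes Il1a, Il1b, Il6 and Il12b were below the filter. Of 28 tested cytokine receptor chains 5 rose and 8 fell (31 listed, median log2 -0.02), the rises 3 without untreated library 1. Besides Il2rg, Fas, the death receptor, went from 1.74 and 2.21 to 4.69 and 4.54 RPKM (log2 0.92, adjusted p = 0.00215), and Tnfrsf1b, a receptor of tumour necrosis factor, from 112 and 109 to 154 and 164 (log2 0.52). Il17ra went from 45.3 and 47.5 to 28.1 and 31.3 RPKM (log2 -0.63), Il7r from 40.0 and 39.9 to 27.7 and 27.2 (log2 -0.53), and Tgfbr2 from 32.5 and 33.4 to 24.2 and 24.7 (log2 -0.41).

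Complement genes other than C3 mostly fell or did not pass. Of 14 tested members 3 rose and 6 fell (19 listed, median log2 -0.23). C5ar1, the receptor for the C5a fragment, went from 58.1 and 62.4 to 32.0 and 37.2 RPKM (log2 -0.79, SE 0.079, adjusted p = 0.000201), and Cd55, which limits complement on cells, from 12.8 and 13.6 to 19.4 and 18.2 RPKM (log2 0.48, adjusted p = 0.00259). The falls of C1qc (log2 -0.38) and C3ar1 (-0.33) lost their calls in some leave-outs, and the 6 falls became 1 without untreated library 1, 2 without untreated library 2 and 3 without RANKL library 1. Of 36 tested interferon-stimulated genes 6 rose and 0 fell (40 listed, 17 and 1 at an unadjusted p under 0.05, median log2 0.14), and 11 rose when genes under 300 bases were left out, while 1 fell without NCsh library 2 lacking RANKL. Ifit1, which binds foreign RNA ends, went from 2.62 and 2.22 to 5.54 and 4.36 RPKM (log2 0.79, adjusted p = 0.00336). Of 12 tested genes of MHC class II and costimulation 4 rose and 0 fell (16 listed, 6 and 0 at an unadjusted p under 0.05, median log2 0.21). Icam1, an adhesion molecule, went from 39.6 and 38.9 to 76.1 and 86.1 RPKM (log2 1.03, SE 0.0674, adjusted p = 2.2e-05). Cd74, H2-DMb2 and Cd80 had log2 changes of 0.63, 0.63 and 0.47 at levels of 1.16 to 7.92 RPKM, and 1 member was called without untreated library 2 or RANKL library 1.

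Matrix and guidance genes held some of the largest changes in both directions. Of 19 tested plasminogen activators, proteases and inhibitors 2 rose, Htra1 and Mmp9, and 6 fell (25 listed, median log2 -0.18). Mmp12, the macrophage elastase, went from 34.9 and 36.5 to 22.5 and 21.9 RPKM (log2 -0.66, adjusted p = 0.000278), and the urokinase receptor gene Plaur (-0.38) fell along with Plau. Of 14 tested neuropilins, plexins and semaphorins 5 rose and 3 fell (18 listed, median log2 0.22). Plxnd1 went from 41.6 and 40.4 to 75.1 and 78.4 RPKM (log2 0.89, SE 0.0621, adjusted p = 2.93e-05), Plxna1, a receptor of osteoclast semaphorin signals, from 39.2 and 40.6 to 59.3 and 63.7 (log2 0.61), and Nrp2 from 116 and 120 to 154 and 159 (log2 0.40), opposite to Nrp1. Sema7a, a membrane-anchored semaphorin, went from 0.8 and 0.968 to 3.45 and 3.42 RPKM (log2 1.24, adjusted p = 0.000531). The 3 falls became 1 without untreated library 1. Of 29 tested integrin and podosome genes 3 rose and 8 fell (30 listed, median log2 -0.13). Besides Fscn1, Itga5 went from 88.0 and 92.1 to 114 and 125 RPKM (log2 0.41) and Cd44 from 88.7 and 87.2 to 119 and 124 (log2 0.46), while Itgb5 went from 57.8 and 58.7 to 29.9 and 32.9 RPKM (log2 -0.88, adjusted p = 2.93e-05) and Itga6 from 29.0 and 28.7 to 16.0 and 17.7 (log2 -0.74). The 8 falls became 2 without untreated library 1, 3 without untreated library 2, 4 without either RANKL library and 13 without either NCsh library lacking RANKL.

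Among lipid genes, most calls in efflux and storage were falls. In synthesis 3 of 30 genes rose, a share near the 8.53% of all genes tested. Of 14 members of the sterol efflux and oxysterol list 1 rose and 7 fell (median log2 -0.26), and the falls became 4 without untreated library 1 or 2 or RANKL library 1, the rises 2 without either NCsh library lacking RANKL. Nr1h3, the oxysterol-sensing nuclear receptor LXR-alpha, went from 18.1 and 19.6 to 34.0 and 35.6 RPKM (log2 0.85, SE 0.0671, adjusted p = 5.94e-05). Lpl, lipoprotein lipase, went from 378 and 377 to 224 and 239 RPKM (log2 -0.70), Apoe, a carrier of effluxed cholesterol, from 429 and 455 to 284 and 309 (log2 -0.58), and Plin2, a lipid droplet coat, from 910 and 877 to 597 and 645 (log2 -0.53). Of 30 sterol and fatty acid synthesis genes 3 rose and 0 fell (7 and 2 at an unadjusted p under 0.05, median log2 0.09), among them Fasn and Idi1 (log2 0.34 and 0.32), and 0 rose without untreated library 1 or 2 or RANKL library 2. Of 33 lysosomal genes 0 rose and 9 fell (0 and 16 at an unadjusted p under 0.05, median log2 -0.15). Lgmn, the protease legumain, went from 271 and 271 to 177 and 183 RPKM (log2 -0.59, adjusted p = 0.000373). The falls became 5, 4 and 3 without untreated library 1, untreated library 2 or RANKL library 1, and 15 after median-ratio scaling. Of 18 V-ATPase subunits 0 rose and 3 fell (0 and 4 at an unadjusted p under 0.05), Atp6v0a1 (log2 -0.51), Atp6v0d2 and Atp6v1b2 (-0.22).

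Calls were rare in protein folding, glycolysis and the respiratory chain. Among TMBIM and BCL-2 family members and caspases, rises and falls were near the 8.53% and 6.89% of all genes. Of 25 tested endoplasmic reticulum folding and degradation genes 0 passed in either direction with limma (2 higher and 2 lower at an unadjusted p under 0.05; 26 listed, median log2 0.03), while 1 rose without RANKL library 1, 1 fell without either NCsh library lacking RANKL and 2 fell without RANKL library 2. Hspa5, the chaperone BiP, had 74.6 and 73.7 RPKM untreated and 79.6 and 90.4 RPKM with RANKL (log2 0.19, adjusted p = 0.101), and Xbp1, a transcription factor of the unfolded protein response, differed by -0.24 on the log2 scale (adjusted p = 0.0617). Of 27 tested TMBIM and BCL-2 family members and caspases 3 rose and 3 fell (29 listed, median log2 -0.05). Bcl2l1, which encodes BCL-XL, went from 55.2 and 57.0 to 34.8 and 38.9 RPKM (log2 -0.59, adjusted p = 0.000374), and Cflar, an inhibitor of caspase-8, from 28.7 and 28.0 to 39.6 and 39.6 (log2 0.47, adjusted p = 0.00105). Bcl2a1a had a log2 change of 0.98 (adjusted p = 0.00349), but its near copies Bcl2a1b and Bcl2a1d had -0.05 and 0.27, and reads may have been split among them. Pmaip1 (0.42), Tmbim1 (-0.22) and Grina (-0.21) also passed, and the 3 falls became 1 without either untreated library, RANKL library 1 or either NCsh library with RANKL, and 5 after median-ratio scaling. Of 31 NRF2 targets and antioxidant enzymes 0 rose and 7 fell (4 and 9 at an unadjusted p under 0.05, median log2 -0.05). Hmox1, heme oxygenase, went from 1957 and 1978 to 1338 and 1466 RPKM (log2 -0.49, adjusted p = 0.00471), and the 7 falls became 3, 1 and 2 without untreated library 1, untreated library 2 or RANKL library 1. Of 8 tested NADPH oxidase genes 2 rose, Cyba (log2 0.44) and Rac2 (0.20), and 0 fell (3 and 1 at an unadjusted p under 0.05), and 0 rose without untreated library 2 and 1 without any other one of the TMBIM6sh libraries or either NCsh library with RANKL, while 1 fell without RANKL library 2. Of 19 tested genes in the p53 list, which holds Trp53 along with its targets, 6 rose and 4 fell (21 listed, median log2 0.11). Trp53 itself went from 28.7 and 28.6 to 38.1 and 39.4 RPKM (log2 0.42), Btg2, an antiproliferative gene, from 6.07 and 6.81 to 3.43 and 3.73 (log2 -0.70), and the 6 rises became 2 without untreated library 1 and 3 without untreated library 2 or RANKL library 2, the 4 falls 2 without untreated library 2 or RANKL library 1. Of 21 glycolysis genes Eno2 rose (log2 0.61) and Hk3 fell (-0.58), and of 30 respiratory chain and ATP synthase genes Ndufv1 rose (0.26) and 0 fell (4 and 0 at an unadjusted p under 0.05). Glycolysis falls were 2 without either NCsh library lacking RANKL, and respiratory chain rises were 4 without either of these and 0 without untreated library 2 or either RANKL library.

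The response was then set beside that of the NCsh libraries, in which 1214 genes rose (11%) and 439 fell (3.98%), 1653 in all. Without NCsh library 1 or 2 with RANKL this total became 694 and 887. Both comparisons are taken from 1 fit with a shared spread but have no library in common. Of the 942 rises in TMBIM6sh libraries 917 (97.3%) had the same sign in NCsh libraries, and of the 761 falls 723 (95%) did. Fewer, 682 rises and 345 falls, were also called in the same direction in NCsh libraries. In the opposite direction 1 rise and 2 falls were called there. The share of equal signs over all genes tested was not counted. The rises had median log2 changes of 0.486 in TMBIM6sh and 0.432 in NCsh libraries, and the falls of -0.394 and -0.244. They were chosen for their change in TMBIM6sh libraries, so larger sizes there are no evidence of a difference. The higher share of rises among the calls in NCsh libraries (73.4% against 55.3%) became 48.9% against 48.4% after median-ratio scaling. The test of the difference of responses called 1 gene of 11040 (0.00906%), the snoRNA Snord104, and called 0 without untreated library 1 or either RANKL library. An unadjusted p under 0.05 was reached by 857 genes (7.76%), where a share of 0.05 would be reached on average if no response differed. The median half-width of the 95% interval of that difference was 0.292 on the log2 scale.

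No protein-coding gene passed the test of the difference with limma. Fgl2, named after its values were seen, a secreted prothrombinase-like protein, was closest, with 22.9 and 21.7 RPKM untreated and 61.4 and 61.0 RPKM with RANKL (log2 1.42) beside a log2 change of 0.68 in NCsh libraries, a difference of 0.74 (adjusted p = 0.0725). Mmp9 responded with 1.66 beside 1.18, a difference of 0.48 (95% interval 0.288 to 0.666, adjusted p = 0.51). C3 responded with 2.62 beside 2.11, a difference of 0.50 (adjusted p = 0.51). Differences of Pde2a (0.67), Fscn1 (0.73), Sema7a (0.80) and Ch25h (-0.64) did not pass either. Traf1, Nfkb2, Birc3 and Nfkbie differed by 0.15, 0.18, 0.17 and 0.02, and Top2a, Rrm2 and Uhrf1 by 0.01, 0.12 and 0.08, each with a 95% interval that includes 0. Traf2 (0.26), Mcm7 (0.34), Fen1 (0.30) and Birc5 (0.25) responded more in TMBIM6sh libraries by intervals that exclude 0, but their adjusted p of 0.597 to 0.633 did not pass. Of Ccl7 the fall was smaller in TMBIM6sh libraries (-0.89 beside -1.18), and of Myc the rise was (0.79 beside 1.09), without passing.

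**Figure D4:**
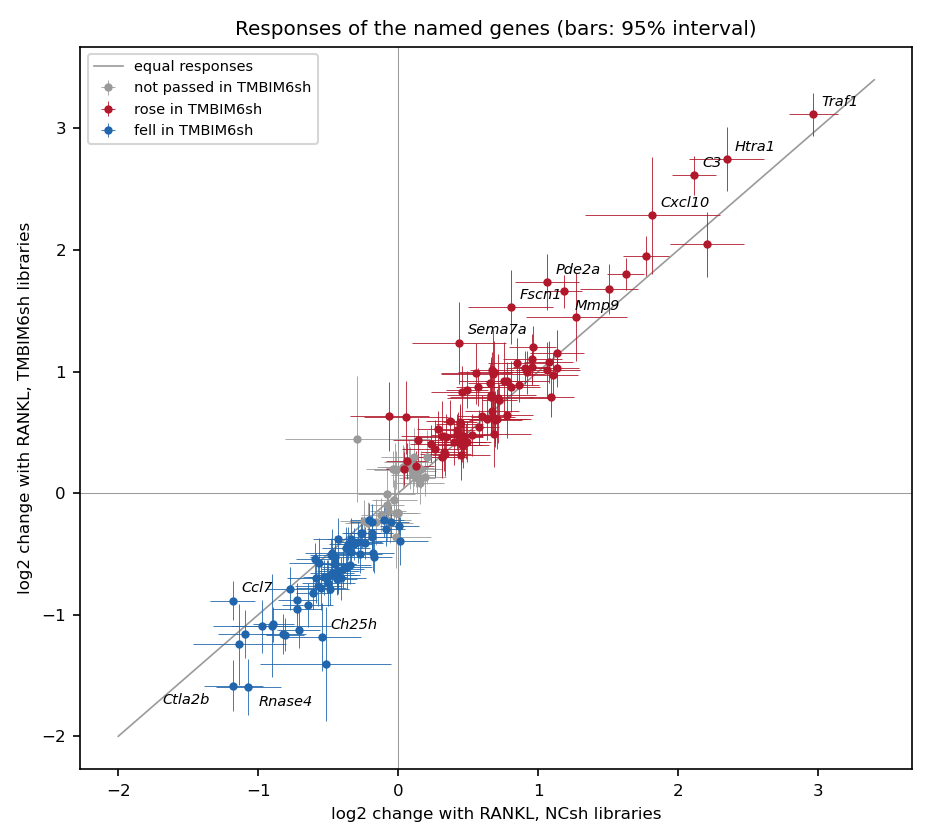
Log2 change with RANKL in TMBIM6sh libraries (vertical axis) against NCsh libraries (horizontal axis) for the tested named genes, with 95% intervals, colours for the call in TMBIM6sh libraries and a line of equal responses. Most genes lie near the line from Rnase4 at -1.60 to Traf1 at 3.11, and Fscn1, Pde2a and Sema7a lie above it without passing the test of the difference.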

How the data were processed

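RNA of 8 libraries, 2 in each of 4 groups, was sequenced, and the authors deposited 1 table of RPKM values for 24940 genes. Per the file headers it was made with HOMER on mm10 RefSeq genes, counting exons on both strands with isoforms condensed; the column heads read FPKM, while the recorded command asked for RPKM. HISAT2 and DESeq2 are named per the submitters' processing notes. Depth was not read from a record but recovered from the steps between the RPKM values, as 25475000 to 28596000 tags per library. All tag counts given here were reconstructed with it, and 1 tag weighs most in short genes. Strand was not used, so overlapping genes share reads.

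Genes with at least 1 RPKM in at least 2 of the 8 libraries (11040) were tested on log2(RPKM + 1) with limma 3.58.1 in R 4.3.3, with 1 mean per group, an intensity trend and a spread shared over all 8 libraries. Benjamini-Hochberg adjustment ran over all genes tested, and the threshold was 0.05. "Rose" and "fell" refer to that test, fold changes are on the log2(RPKM + 1) scale, which understates low genes, and list medians are of log2 changes. A permutation test of 2 against 2 libraries cannot go below p = 0.333, so none was used. Tables were made with Python 3.11.15, and the scripts were tested on simulated data, where false calls were more frequent than the threshold implies.

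Named were Tmbim6, the 12 largest called rises and falls with at least 5 RPKM in the higher group and no overlap between groups, up to 5 members of smallest p in each of 31 gene lists, all osteoclast effectors and the called NF-kappaB members. Genes named beyond these, to complete a count or to show a gene that did not pass, were chosen after their values were seen. Some genes that this rule names are not reported here. The comparison, the gene lists and the 7 marker lists were chosen with earlier results of these data known, so their counts are not independent evidence. Promoter windows came from RefSeq (GRCm38.p6), matched by symbol for 8567 of the genes tested. Same-numbered libraries did not deviate together (correlations of -0.0651 to 0.0625), so the numbers were not taken as pairs. Alternatives were other pseudocounts, filters, scalings, fits and leaving out each library.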

Additional observations from a re-analysis of the deposited data

Results flagged for a closer look

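The responses to RANKL with and without the TMBIM6 hairpin differed past the threshold for 1 gene, Snord104, a small nucleolar RNA gene of 72 bases on chromosome 11 (106500991 to 106501063, mm10). Its level was 4.08 and 3.90 RPKM in the untreated and 1.08 and 1.09 RPKM in the RANKL libraries of TMBIM6sh cells, and 0.525 and 0.974 RPKM without and 5.45 and 3.4 RPKM with RANKL in NCsh cells. The log2 change was -1.26 in TMBIM6sh and 1.62 in NCsh libraries, a difference of -2.88 (SE 0.259, limma adjusted p = 0.00998). These values rest on 8 and 8 tags against 2 and 2 in TMBIM6sh libraries, and on 1 and 2 against 10 and 7 tags in NCsh libraries. The difference was no longer past the threshold without TMBIM6sh untreated library 1 or either TMBIM6sh RANKL library. The share of counting error in this difference was not tested.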

How the results depend on the processing

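The 1703 calls of the RANKL response in TMBIM6sh libraries ranged from 826 to 2056 when 1 library was left out, rises from 515 to 1144 and falls from 311 to 912. The 1653 calls in NCsh libraries ranged from 694 to 1520. Where a group was left with 1 library, that library was assumed to vary like the other groups. The difference of responses, 1 call, gave 0 to 2 when 1 library was left out, and 0 with a filter of 5 RPKM, with genes of at least 300 bases or with protein-coding genes of 1 place, filters that each remove the gene called. It gave 8 with no filter, and 2 with no intensity trend or a pseudocount of 4, and the cause was not tested. With the replicate number as a block the calls were 1670 in TMBIM6sh libraries (938 higher, 732 lower), 1608 in NCsh libraries and 1 for the difference, and the pairing of numbers had no support in the correlations. Median-ratio scaling gave 915 rises and 977 falls in TMBIM6sh libraries.

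Of 174 named genes tested 144 passed, 111 of them in every setting they entered. There were 19 settings, of which 8 leave out a library and 3 were added after seeing the data, and filters on level, length or gene type leave out some of these genes. Leaving out 1 library cost 33 genes their call in at least 1 setting. Settings that keep all 8 libraries cost 16 of the called genes their call at least once. Having no filter on low values cost 13, no intensity trend 7 and a pseudocount of 4 cost 2, and the block cost Idi1 and Rac2 theirs. No called gene changed direction, while 3 genes that did not pass did so when 1 library was left out. Their log2 changes then ranged from -0.090 to 0.070 for Ckb (also 0.024), from -0.015 to 0.176 for Clcn7 and from -0.141 to 0.029 for Snx10. With 2 libraries a group, the median 95% half-width of a response was 0.207 on the log2 scale, and genes of few tags were less precise.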

Other observations

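Large changes were also present among genes outside the lists, named here after their values were seen. Mycl, a MYC family transcription factor, went from 0.134 and 0.277 RPKM in the untreated to 4.83 and 4.68 RPKM in the RANKL libraries (log2 2.26, SE 0.123, limma adjusted p = 9.23e-06), just under the level required for naming. Jarid2, a subunit of the Polycomb complex that methylates histone H3, went from 6.14 and 7.03 to 16.3 and 16.6 RPKM (log2 1.20). Tgfbi, an adhesive matrix protein, went from 13.3 and 13.4 to 30.3 and 33.5 RPKM (log2 1.20). In these 3 genes both RANKL libraries lay above both untreated libraries. Rnf19b, a ubiquitin ligase gene, was more abundant and went from 57.2 and 57.5 to 121 and 126 RPKM (log2 1.09). Acsl1, which activates long-chain fatty acids, went from 16.6 and 16.2 to 34.3 and 34.4 RPKM (log2 1.02).

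Among the falls, Hpgd, which inactivates prostaglandins, went from 2.58 and 2.67 to 0.387 and 0.321 RPKM (log2 -1.42, SE 0.13, limma adjusted p = 0.000117). Dusp6, a phosphatase of ERK kinases, went from 33.3 and 34.9 to 16.6 and 16.3 RPKM (log2 -1.0), and Hip1, an endocytic adaptor, from 25.9 and 24.9 to 11.5 and 12.7 RPKM (log2 -1.01).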
